A study of Gallus gallus with 18 samples.

Results

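The genes described here are those whose response to feeding could be compared across liver, abdominal adipose tissue and ovary of the same broiler breeder hens. A gene was taken when it exceeded 1 CPM, its read count scaled to the size of the library, in all 18 libraries, which held for 9192 of the 17108 genes in the count table. For each gene the feeding effect was the average of the 3 within-tissue differences, and the hen, not the library, was the unit. All hens were Arbor Acres, a commercial meat-type line, and were reared together on a managed ration before the experiment. From week 22 of age one group was fed ad libitum and the other was kept on restricted feeding, and tissues were collected at 30 weeks. Each group had 3 hens, and each hen gave 1 RNA-seq library from each tissue. The ad libitum hens gave liver libraries G1721, G1723 and G1725 and the restricted hens gave G1724, G6709 and G6710, with F and M in place of G for adipose tissue and ovary. Where values of the hens are listed, they stand in this order, and each hen is called by its liver library.

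Broiler breeders are selected for rapid growth, and hens with free access to feed overeat, deposit fat in liver and abdomen and lay fewer settable eggs. Liver, fat and ovary work as a chain in a laying hen, because the liver makes yolk lipoproteins under estrogen, fat stores the surplus lipid, and the ovary takes up yolk into growing follicles. These tissues all see the same circulating nutrients, hormones and blood cells. Processes known to respond to nutrient supply in most cells include mitochondrial respiration, protein turnover by the proteasome, cytokine and growth hormone signalling through JAK and STAT proteins, the circadian clock and lipid synthesis.

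The libraries held between 14793554 and 23261748 counts, so that 3 counts corresponded to 0.129 to 0.203 CPM. ALB, the albumin gene of hepatocytes, reached 109000 to 139000 CPM in liver and at most 344 CPM elsewhere. PLIN1 of adipocyte lipid droplets reached 4070 to 11000 CPM in adipose tissue, and AMH of granulosa cells reached 412 to 1120 CPM in ovary. By these genes each tissue carried its own markers, while some others were less clear. ADIPOQ of adipocytes held 153 to 395 CPM in adipose tissue and 14.6 to 224 CPM in ovary. The egg coat gene ZP3 held 30.8 to 350 CPM in ovary and 0.722 to 93.7 CPM in adipose tissue. INHA of granulosa cells held at most 3.75 CPM in ovary. Among the 6 hens, the hen of G6709, labelled as restricted, stood apart from its group in the means over tissues. In root mean square log2 distance over the tested genes it lay 0.255 to 0.327 from the ad libitum hens and 0.418 to 0.425 from the other restricted hens, which were 0.296 from each other. On the first principal component of the hen means, which held 48.5% of the variance, its score was 11.1, the ad libitum hens scored 11, 11.3 and 10.9, and the other restricted hens scored -18.4 and -25.9. Within single tissues the distances overlapped in part, with 0.42 to 0.48 to the ad libitum livers and 0.468 to 0.709 to the restricted livers. In adipose tissue F6709 lay 0.449 to 0.616 from the ad libitum libraries and 0.58 to 0.805 from the restricted libraries. In ovary M6709 was 0.283 from the ad libitum M1721 but 0.542 and 0.605 from M1725 and M1723. It was 0.447 from the restricted M6710 and 0.645 from M1724. The ad libitum M1721 was nearer to M6709 than to M1725 and M1723, which were at 0.459 and 0.544. Another restricted hen, that of G1724, also lay apart from its group in liver and ovary. Its liver was 0.575 from G6710 and 0.709 from G6709, which were 0.468 from each other. That liver was still farther from the ad libitum G1721, G1723 and G1725, at 0.736, 0.753 and 0.789. The ovary of this hen was 0.645 and 0.71 from M6709 and M6710. From the ad libitum M1725, M1723 and M1721 it was 0.423, 0.459 and 0.586. Causes were not tested, the labels were kept, and the results are given with and without the hen of G6709.

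No gene passed a false discovery rate (FDR) of 0.1 for the shared feeding effect with all 6 hens (limma on hen means, 0% of genes tested, smallest adjusted p 0.454). At an unadjusted p under 0.05 there were 638 genes higher in ad libitum hens (6.94% of genes tested) and 371 lower (4.04%), and 859 of these 1009 genes had the same direction in all 3 tissues. Over all 9192 genes tested 3650 had the same direction, and a choice by the average over tissues favours such genes. Over the 18 libraries, edgeR's quasi-likelihood test also called 0 genes (smallest FDR 0.226, 1419 at p under 0.05), as did limma-voom with the hen as a block (smallest FDR 0.370, 1143 at p under 0.05). DESeq2, which like this edgeR test took the 18 libraries as independent, called 218 genes, 117 higher and 101 lower with ad libitum feeding. The call depended on the hen of G6709. Without it 1763 genes passed, 1085 higher and 678 lower in ad libitum hens, whereas leaving out any other hen left 0 calls.

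Over those 1763 genes, the left-out hen could be placed on a scale on which the mean of the ad libitum hens is 1 and the mean of the other 2 restricted hens is 0. Its median position was 0.953, with quartiles of 0.736 and 1.17, and it was nearer to the ad libitum mean for 1605 genes (91%). The hens that set the ends of this scale were also those by which the genes were chosen. The position that a hen would take without any feeding effect was not computed. Of the 1763 genes, 1294 had the same direction in all 3 tissues with all 6 hens included, against 3650 of all 9192 genes tested. These 1763 were also chosen by an average over tissues.

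**Figure D1:**
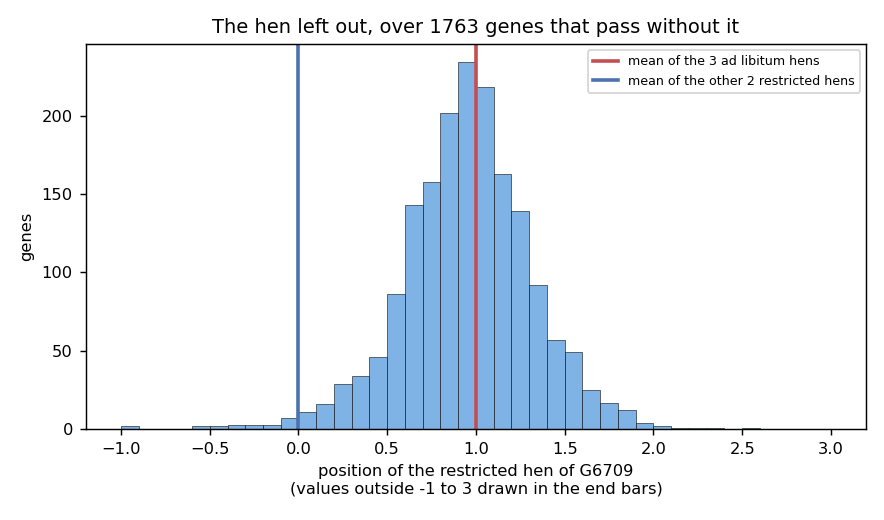
Position of the restricted hen of G6709 (horizontal axis, 1 for the mean of the 3 ad libitum hens and 0 for the mean of the other 2 restricted hens) for each of the 1763 genes that pass without this hen (vertical axis, number of genes per bar). The bars centre on the ad libitum mean, with a median of 0.953.

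In 3650 genes the direction was the same in liver, adipose tissue and ovary, whatever the size of the difference. Of these 1899 were higher in ad libitum hens (20.7% of genes tested) and 1751 were lower (19%). The 3 ad libitum hen means lay entirely above the 3 restricted hen means in 661 genes (7.19%) and entirely below them in 682 genes (7.42%). Without any feeding effect, 3 against 3 hens would be separate, in either direction, in a share near 0.10. The stricter condition that the feeding groups do not overlap in any of the 3 tissues was met by 6 genes, 3 higher (0.0326% of genes tested) and 3 lower (0.0326%). Over so many genes, some could meet it without any feeding effect.

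KCNT2 (ENSGALG00000002451), a sodium-activated potassium channel, was the first of the higher genes by p among these 6. In liver KCNT2 was at 18.2, 27.7 and 15.3 CPM in ad libitum hens, against 7.81, 11.5 and 9.96 CPM in restricted hens. In adipose tissue KCNT2 was at 5.35, 4.92 and 6.81 CPM with ad libitum feeding, against 3.58, 4.46 and 3.04 CPM with restriction. In ovary it was at 4, 6.82 and 3.88 CPM in ad libitum hens, against 2.89, 3.15 and 1.68 CPM in restricted hens. Every ad libitum library of KCNT2 therefore stood above every restricted library of its tissue. The average difference of KCNT2 was 0.85 on the log2 scale, ad libitum over restricted (SE 0.20, limma p 0.00262, adjusted p 0.454), from 1.03 for liver, 0.61 for adipose tissue and 0.90 for ovary.

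ABCC6 (ENSGALG00000006698), an ATP-binding cassette transporter of hepatocytes and other cells, had 76.8, 65.6 and 70.5 CPM in ad libitum livers, against 31.1, 59.3 and 54.7 CPM in restricted livers. Its adipose values were 35.2, 33 and 34.7 CPM in ad libitum hens and 20.7, 23.9 and 16.2 CPM in restricted hens, and its ovary values were 24.9, 21 and 22.8 CPM in ad libitum hens and 19.9, 19.2 and 19.5 CPM in restricted hens. The ovary groups of ABCC6 were separate but close, and its log2 differences were 0.60, 0.77 and 0.22 in liver, adipose tissue and ovary. DDX3X (ENSGALG00000016231), an RNA helicase of translation, is given as the geometric mean over tissues. It stood at 1060, 1110 and 1010 CPM in the ad libitum hens, against 802, 862 and 784 CPM in the restricted hens. The 6 hens of DDX3X did not overlap, and the average log2 difference was 0.38 (SE 0.14, limma p 0.0221).

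The 3 genes lower in every ad libitum library of each tissue included NOC2L (ENSGALG00000002222), a nucleolar protein. Its hen values, as geometric means over tissues, were 34, 30.3 and 29.1 CPM with ad libitum feeding, against 39.2, 37.4 and 40.3 CPM with restriction. In adipose tissue the NOC2L groups were nearly touching, with 43.9 CPM in the highest ad libitum and the lowest restricted library at this rounding. Its average log2 difference was -0.33 (SE 0.11, limma p 0.0185), and adipose tissue gave -0.08 of log2 difference against -0.53 in liver and -0.37 in ovary. The other 2 genes, ENSGALG00000001691 and ENSGALG00000008595, had no symbol. ENSGALG00000001691 had nearly equal log2 differences of -0.37, -0.32 and -0.32 in liver, adipose tissue and ovary, while ENSGALG00000008595 had -0.39, -0.26 and -0.12.

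Because fewer than 6 genes in a direction were separated in every tissue, the genes named next were the 12 higher and 12 lower genes with the smallest p among those with a symbol whose 6 hen means did not overlap. Their separation was thus a condition of the choice. None passed the adjusted threshold with 6 hens (adjusted p 0.454 for each, limma), and 20 of the 24 had the same direction in all 3 tissues. Without the hen of G6709 all 24 passed, at FDR 0.0219 to 0.0764, and DESeq2 over 18 libraries called 21 of them. These fits reuse the libraries by which the 24 were chosen, so their passing is not separate support. In the fit without that hen, 19.2% of all genes with a symbol passed as higher and 11.5% as lower.

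**Figure D2:**
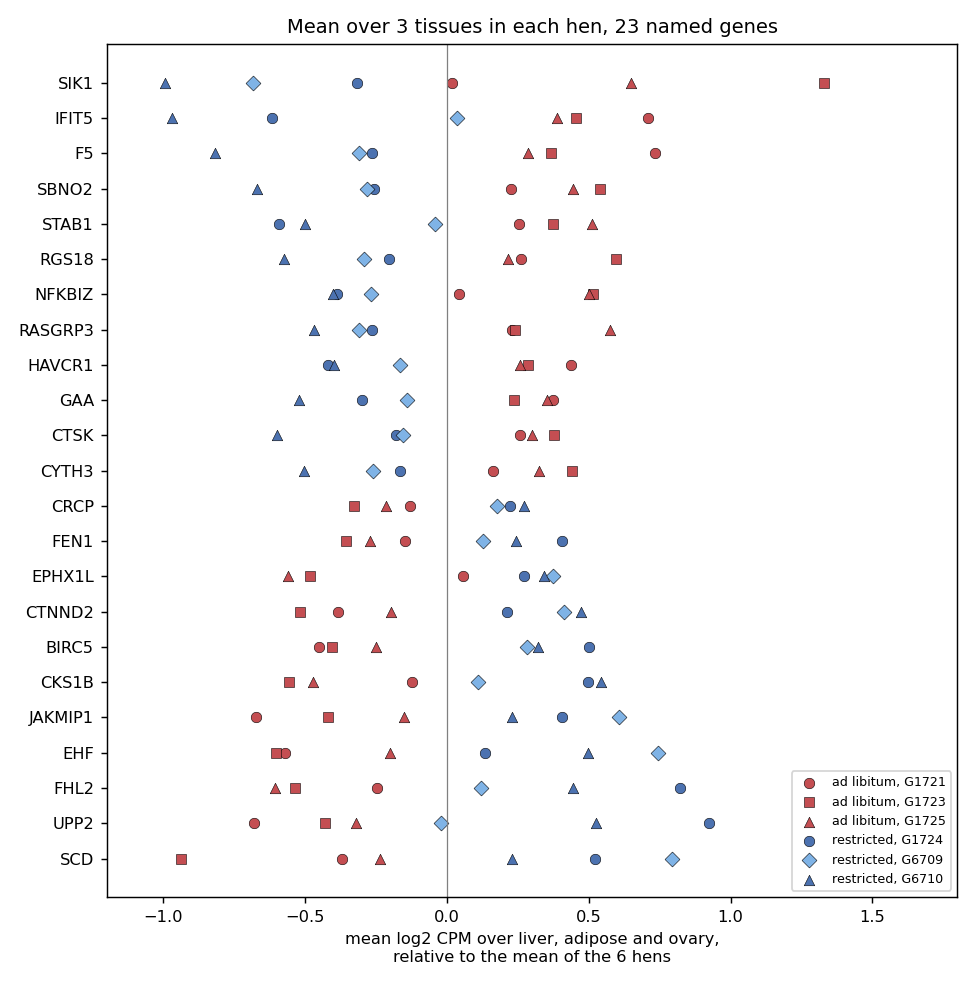
Mean log2 CPM over liver, adipose tissue and ovary in each hen, relative to the mean of the 6 hens (horizontal axis), for 23 of the 24 named genes (vertical axis). Red symbols are the 3 ad libitum hens and blue symbols the 3 restricted hens, with the hen of G6709 in light blue, and the hen means of the feeding groups do not overlap in any of the genes drawn, which was the condition for naming them.

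Of the 12 higher genes, SBNO2, NFKBIZ and IFIT5 are known from immune and cytokine responses. SBNO2 (ENSGALG00000002672), a transcriptional regulator that in mammals is induced by interleukin signalling through STAT3, had 47.1, 36.9 and 38.2 CPM in ad libitum livers, against 14.2, 19.3 and 18.6 CPM in restricted livers. In adipose tissue SBNO2 overlapped between groups, with 96.3, 172 and 140 CPM in ad libitum hens and 111, 114 and 71.3 CPM in restricted hens. In ovary it had 58.9, 80.6 and 78.7 CPM with ad libitum feeding and 61.9, 42.3 and 31.3 CPM with restriction. The liver groups were thus separate, and the groups overlapped in the other tissues. The average log2 difference of SBNO2 was 0.80 (SE 0.15), with the smallest p among the higher genes (limma p 0.000461).

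NFKBIZ (ENSGALG00000015346), an inducible nuclear regulator of NF-kB target genes, had geometric means of 18.9, 26.2 and 26 CPM in the ad libitum hens, against 14, 15.2 and 13.9 CPM in the restricted hens. Its log2 differences were 0.76, 0.42 and 0.94 for liver, adipose tissue and ovary. IFIT5 (ENSGALG00000006384), an interferon-induced RNA-binding protein, had hen values of 25.3, 21.2 and 20.3 CPM with ad libitum feeding, against 10.1, 15.9 and 7.91 CPM with restriction. Its average log2 difference of 1.03 (SE 0.24) came mostly from the ovary, at 2.22, with 0.82 in liver and 0.06 in adipose tissue. In ovary the IFIT5 libraries were at 25.4, 50.8 and 24 CPM in ad libitum hens, against 6.89, 10.5 and 4.07 CPM in restricted hens, with no overlap. In adipose tissue the restricted library F6709 had the highest IFIT5 level, at 22.6 CPM.

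STAB1, HAVCR1, RGS18 and CTSK are known from macrophages, blood cells or phagocytosis. STAB1 (ENSGALG00000001535) is a scavenger receptor of macrophages and sinusoidal endothelium. Its hen values were 192, 208 and 229 CPM in ad libitum hens, against 107, 156 and 114 CPM in restricted hens. The log2 differences of STAB1 were 0.93, 0.44 and 0.90 in liver, adipose tissue and ovary. Library G1724 weighed on the liver value, at 21.4 CPM, while the other restricted livers held 68.5 and 66.9 CPM. The ad libitum livers held 107, 78 and 83 CPM. HAVCR1 (ENSGALG00000017362), a receptor for phosphatidylserine on dying cells, had hen values of 20.1, 18.2 and 17.8 CPM with ad libitum feeding, against 11.1, 13.3 and 11.3 CPM with restriction, but its log2 difference was 1.49 in ovary and only 0.18 in liver. For RGS18 (ENSGALG00000021143), a regulator of G protein signalling in blood cells, hen values were 15.2, 19.1 and 14.7 CPM with ad libitum feeding, against 11, 10.4 and 8.51 CPM with restriction. The ovary again led, at 1.55 on the log2 scale. In adipose tissue the log2 differences of HAVCR1 and RGS18 were 0.30 and 0.17, and library F1721 weighed on both. It held 34.1 CPM of HAVCR1 and 25.8 CPM of RGS18, while the other adipose libraries held 13.5 to 23.6 CPM and 13.1 to 17.8 CPM. CTSK (ENSGALG00000028147), the collagen-degrading cathepsin K, reached 539, 510 and 301 CPM in ad libitum adipose tissue, against 151, 330 and 203 CPM in restricted adipose tissue. The liver held little CTSK, and there its log2 difference was -0.32, so CTSK did not share a direction over the 3 tissues. Summed CPM of the leukocyte markers, given further on, ranged higher in ad libitum ovaries, with overlap between groups. The part of leukocytes in the differences of these genes was not tested. In whole tissue, more cells of a type and more RNA per cell cannot be told apart.

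The remaining higher genes were metabolic, signalling or secreted. SIK1 (ENSGALG00000016200), a salt-inducible kinase that in mammals restrains CREB-driven glucose production, had the largest average log2 difference of the 24, at 1.33 (SE 0.31). In liver SIK1 was at 75.7, 442 and 182 CPM in ad libitum hens, against 26.6, 31.3 and 14.2 CPM in restricted hens. In adipose tissue it was at 580, 1069 and 878 CPM in ad libitum hens, against 454, 489 and 434 CPM in restricted hens. In ovary the groups overlapped, with 81.3, 116 and 82.7 CPM with ad libitum feeding and 146, 53.9 and 69.9 CPM with restriction. The direction of SIK1 was shared, with log2 differences of 3.00, 0.83 and 0.17 in liver, adipose tissue and ovary. Its unadjusted interaction p was 0.00050 (edgeR), but its interaction FDR was 0.818, so a difference in size among tissues was not called. The sign follows the feeding labels of the libraries, as every direction given here does. The study's text reports the opposite sign, with SIK1 lower in ad libitum hens by RNA-seq and by qRT-PCR. That text does not name the tissue. The same text also calls CHAC1 lower and ANGPTL4 higher in ad libitum hens. By the labels, CHAC1 had log2 differences of 1.68, 1.58 and -0.06 in liver, adipose tissue and ovary. Those of ANGPTL4 were -2.64, 2.07 and 1.49. The study's text further gives ESR1 in liver, and CTSS and CYBB in ovary, as higher with ad libitum feeding. By the labels, the log2 differences of ESR1, CTSS and CYBB there were also positive, at 1.13, 1.56 and 1.94. The reason for the conflict in SIK1 was not tested, so the direction stated for SIK1 rests on the feeding labels.

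F5 (ENSGALG00000015207), coagulation factor V, is made chiefly by the liver, where it stood at 829, 1286 and 920 CPM in ad libitum hens, against 672, 782 and 660 CPM in restricted hens. Its average log2 difference was 0.93 (SE 0.18), from 0.50 for liver, 0.58 for adipose tissue and 1.69 for ovary. A single library weighed on the adipose value of F5. F1721 held 79.3 CPM, while the other ad libitum libraries held 19.8 and 18.9 CPM and the restricted libraries 16, 30.6 and 17.9 CPM. GAA (ENSGALG00000004181), the lysosomal enzyme that degrades glycogen, had hen values of 67.6, 61.6 and 66.7 CPM with ad libitum feeding, against 42.5, 47.3 and 36.4 CPM with restriction, and log2 differences of 0.31, 0.71 and 0.90. RASGRP3, which activates Ras, and CYTH3, which activates ARF proteins, differed most in liver, at 1.26 and 0.98 on the log2 scale, with averages of 0.70 and 0.62. In both genes the liver groups did not overlap.

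Of the 12 lower genes, BIRC5, CKS1B and FEN1 act in cell division or DNA replication. BIRC5 (ENSGALG00000008713), the mitotic protein survivin, had geometric means of 6.09, 6.28 and 7 CPM in the ad libitum hens, against 11.8, 10.1 and 10.4 CPM in the restricted hens. Its log2 differences were -1.30 for liver, -0.55 for adipose tissue and -0.35 for ovary, and its average of -0.74 (SE 0.15) had the smallest p of the lower genes (limma p 0.000859). A single library weighed on the liver value, since G1724 held 9.6 CPM of BIRC5 while the other restricted livers held 2.35 and 2.71 CPM and the ad libitum livers 1, 1.91 and 1.93 CPM. CKS1B (ENSGALG00000028664), a subunit of cyclin-dependent kinases, was at 13.3, 9.82 and 10.4 CPM in ad libitum hens, against 20.4, 15.6 and 21.1 CPM in restricted hens. FEN1 (ENSGALG00000024076), the flap endonuclease of DNA replication, was at 15.8, 13.7 and 14.5 CPM with ad libitum feeding, against 23.2, 19.1 and 20.7 CPM with restriction. Library G1724 was also the highest liver library for CKS1B and FEN1, at 9.06 and 11.9 CPM. The log2 differences of both had the same sign in every tissue, from -0.43 to -1.24 for CKS1B and from -0.27 to -0.81 for FEN1.

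EHF and CTNND2 are known from epithelia and cell junctions. EHF (ENSGALG00000007817), an epithelial ETS factor, was scarce in liver and adipose tissue and differed most in adipose tissue and ovary, at -1.24 and -1.25 on the log2 scale. CTNND2 (ENSGALG00000013001), a catenin of cell junctions, had hen values of 9.61, 8.74 and 10.9 CPM in ad libitum hens, against 14.5, 16.7 and 17.4 CPM in restricted hens. Its log2 differences lay close together, at -0.82, -0.80 and -0.58 in liver, adipose tissue and ovary. JAKMIP1, a microtubule-associated protein that binds Janus kinases, was likewise lower in each tissue, at -0.55, -0.81 and -1.13.

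FHL2 (ENSGALG00000016797), a LIM domain cofactor, had log2 differences of -0.78, -1.57 and -0.43. The restricted ovary library M1724 held 752 CPM of it, while the other restricted ovaries held 94.8 and 191 CPM and the ad libitum ovaries 200, 156 and 179 CPM. The negative sign of FHL2 in ovary, and so its shared direction, thus rested on M1724. CRCP (ENSGALG00000002587), a subunit of RNA polymerase III, had the smallest difference of the 24, with hen values of 38.7, 33.8 and 36.4 CPM in ad libitum hens, against 49.4, 47.9 and 51.1 CPM in restricted hens. Its average was -0.45 on the log2 scale (SE 0.11).

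In the other 3 lower genes the difference was largest in adipose tissue. SCD (ENSGALG00000005739), the desaturase that makes monounsaturated fatty acids, was at 18.2, 16.6 and 31.7 CPM in ad libitum adipose tissue, against 305, 347 and 53.8 CPM in restricted adipose tissue. In liver SCD was at 768, 415 and 767 CPM in ad libitum hens and 481, 497 and 943 CPM in restricted hens. The adipose groups were separate and the liver groups overlapped, so the log2 difference was -3.06 in adipose tissue, against 0.04 in liver and -0.06 in ovary. UPP2 (ENSGALG00000012554), a uridine phosphorylase, was at 2.32, 3.78 and 2.11 CPM in ad libitum adipose tissue, against 69.6, 3.02 and 31.1 CPM in restricted adipose tissue, a log2 difference of -2.78. Here F6709 lay within the ad libitum range. EPHX1L, an epoxide hydrolase of detoxification, had log2 differences of -0.48, -1.52 and 0.02 for liver, adipose tissue and ovary, and its groups did not overlap in adipose tissue or liver. An average over tissues therefore does not stand for a shared direction in SCD, UPP2 or EPHX1L.

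**Figure D3:**
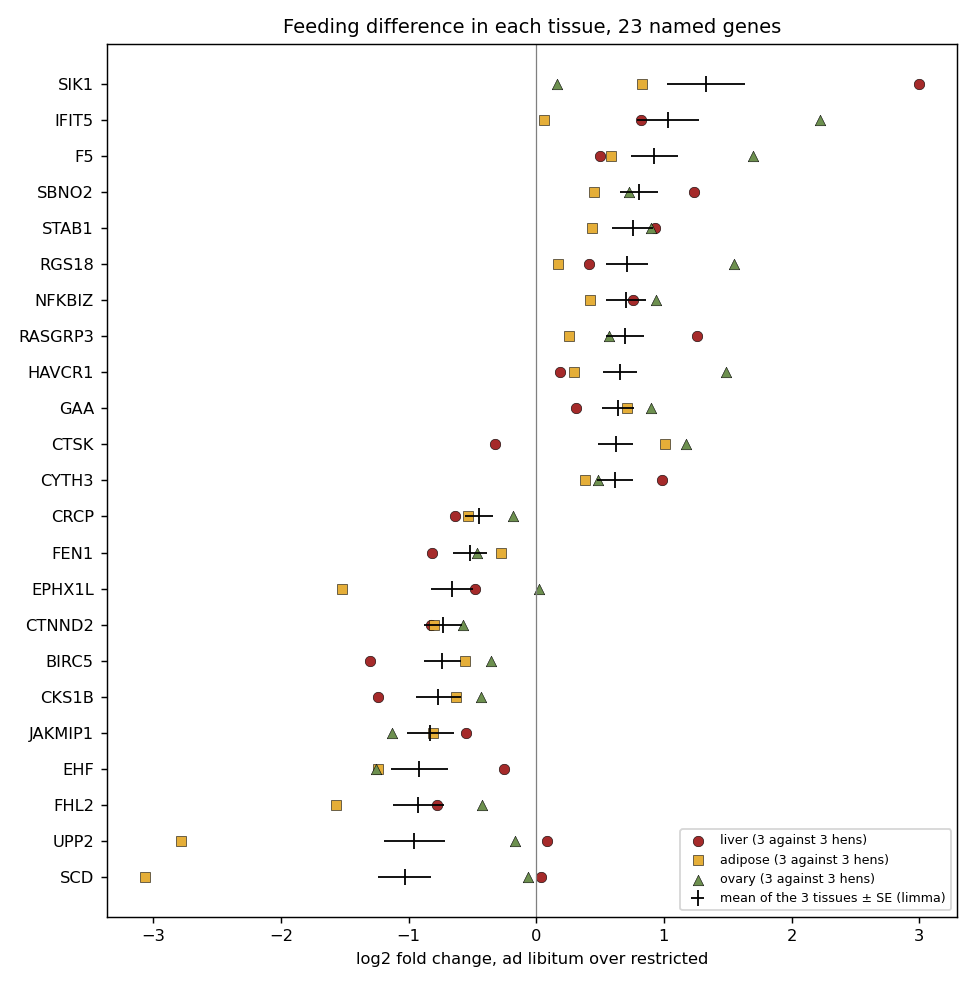
Log2 fold change, ad libitum over restricted (horizontal axis), in liver, adipose tissue and ovary for 23 of the 24 named genes (vertical axis), with the mean of the 3 tissues and its standard error from limma in black. CTNND2 has nearly equal values from -0.82 to -0.58, whereas SCD is at -3.06 in adipose tissue and near 0 elsewhere, and SIK1 is at 3.00 in liver and 0.17 in ovary.

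Gene lists were read by counts beside those of the 4122 tested genes that carried a symbol, since only these could be list members. Among them 12.5% were higher and 7.33% lower at p under 0.05, and 24.3% were higher and 19.6% lower in all 3 tissues. No list member passed FDR 0.1 with 6 hens. Without the hen of G6709, 19.2% of genes with a symbol passed FDR 0.1 as higher in ad libitum hens and 11.5% as lower.

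**Figure D4:**
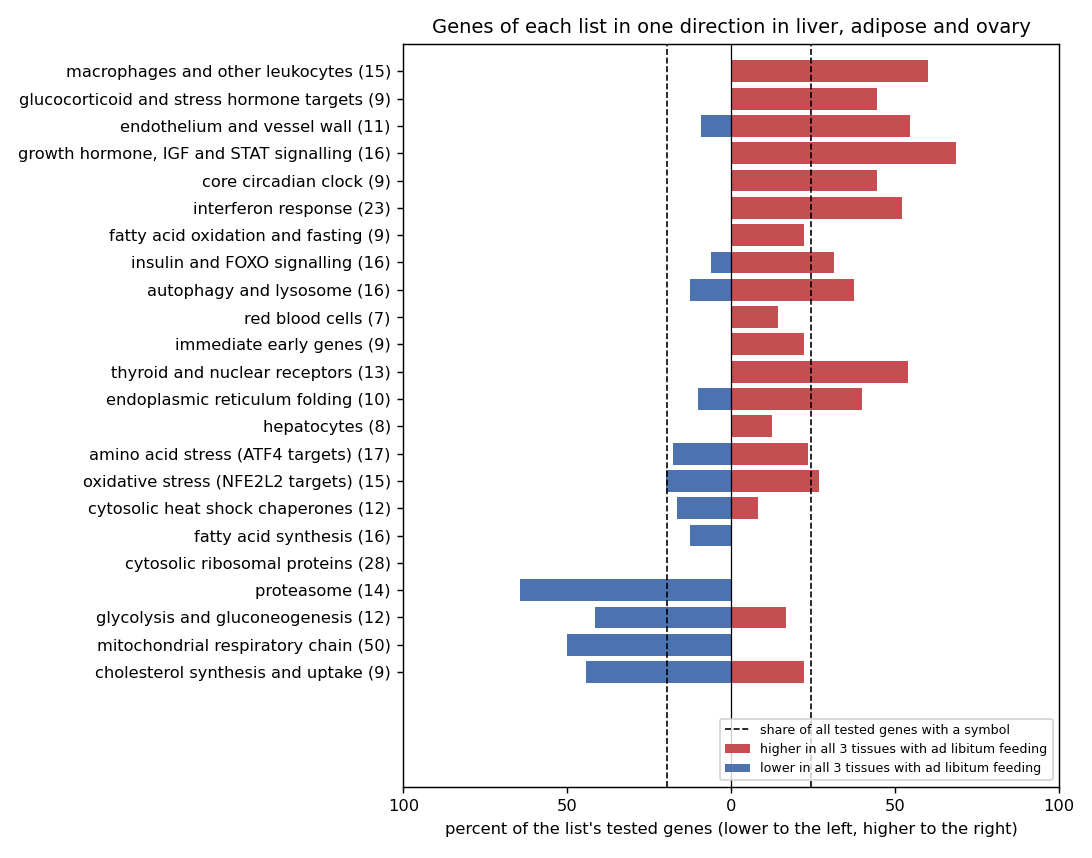
Percent of the tested members of each gene list (number of members in brackets, vertical axis) that were higher (red, to the right) or lower (blue, to the left) in ad libitum hens in all 3 tissues, beside the share of all tested genes with a symbol (dashed lines, 24.3% higher and 19.6% lower). The respiratory chain and proteasome lists lie only to the left, and the growth hormone, interferon and leukocyte lists only to the right.

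The mitochondrial respiratory chain, the set of enzyme complexes that passes electrons to oxygen and makes ATP, leaned lower in ad libitum hens. All 50 tested subunits had a negative average difference, under each of the scalings tried, and 21 reached p under 0.05, while 25 were lower in all 3 tissues and 0 were higher in all 3. The median difference was -0.34 on the log2 scale, against 0.03 over genes with a symbol. Liver and adipose tissue carried it, with medians of -0.56 and -0.47, while the ovary median was near 0, at -0.01. Sums over a list are in CPM scaled by library size alone. That scaling moved the median liver difference of all genes tested to -0.11 on the log2 scale, against 0.01 with the scaling used for single genes. Summed over the 50 genes, liver held 3760 to 4360 CPM in ad libitum hens and 5280 to 7370 CPM in restricted hens. These groups did not overlap. Adipose tissue held 4890 to 5390 CPM in ad libitum hens and 4820 to 9620 CPM in restricted hens, and F6709 was the library at 4820 CPM. In ovary the sums were 4280 to 5110 CPM with ad libitum feeding and 4300 to 5000 CPM with restriction. With the hen of G6709 left out, 49 of the 50 passed FDR 0.1 as lower.

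NDUFS3 (ENSGALG00000008084), a core subunit of complex I, was at 34.6, 33.6 and 33.7 CPM in ad libitum livers, against 51.7, 53.5 and 49.7 CPM in restricted livers. In adipose tissue NDUFS3 was at 49.7, 46.1 and 43.6 CPM with ad libitum feeding and 62.6, 44.8 and 104 CPM with restriction. In ovary it was at 60.4, 53.5 and 56.6 CPM with ad libitum feeding and 56.8, 67 and 70.4 CPM with restriction. The liver groups of NDUFS3 did not overlap, whereas 1 restricted library fell within the ad libitum range in each of the other tissues. The average log2 difference was -0.43 (SE 0.13, limma p 0.0091). NDUFA8 and NDUFB3, further complex I subunits, had averages of -0.44 and -0.48, and CYCS, the electron carrier cytochrome c, had -0.42, all with the same sign in each tissue. The hens deviated together over the list, at -0.203, -0.169 and -0.145 in ad libitum hens and 0.32, -0.177 and 0.375 in restricted hens (mean log2 CPM relative to all 6 hens). The hen of G6709 thus lay within the ad libitum range.

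The proteasome, which degrades ubiquitin-tagged proteins, had the same pattern. All 14 tested subunits had a negative average difference under each scaling tried, 4 reached p under 0.05, 9 were lower in all 3 tissues and 0 higher, and the median was -0.29. PSMB3 (ENSGALG00000001597), a subunit of the catalytic ring, had hen values of 59.9, 58.1 and 58.5 CPM in ad libitum hens, against 87.9, 67.4 and 95 CPM in restricted hens, with log2 differences of -0.81, -0.36 and -0.29 in liver, adipose tissue and ovary. Its hen values did not overlap, and the hen of G6709 was the lowest of the restricted group. PSMA7, PSMA5 and PSMD6 had averages of -0.37, -0.36 and -0.30. Without the hen of G6709, 10 of the 14 passed FDR 0.1 as lower. Cytosolic ribosomal protein genes had medians of -0.57 for liver, -0.29 for adipose tissue and 0.36 for ovary, and 0 of the 28 had the same direction in all 3, though a difference between tissues was not tested for the list. Summed over the 29 such genes in the table, levels were 6660 to 7790 CPM in ad libitum livers and 9250 to 13100 CPM in restricted livers, without overlap. The groups overlapped in adipose tissue, at 17400 to 19400 CPM with ad libitum feeding and 17800 to 26800 CPM with restriction, and in ovary, at 11400 to 19600 CPM with ad libitum feeding and 10800 to 16300 CPM with restriction. None of the 28 reached p under 0.05 (limma), and 2 passed FDR 0.1 as lower without the hen of G6709.

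Genes of growth hormone, insulin-like growth factor and STAT signalling leaned the other way. Of 16 tested, 6 reached p under 0.05 and 11 were higher in all 3 tissues, with 0 lower by either count, and the median difference was 0.37. SOCS3 (ENSGALG00000027786), the feedback inhibitor that cytokine receptors induce through STAT3, was at 7.87, 8.61 and 6.92 CPM in ad libitum livers, against 2.8, 2.35 and 2.4 CPM in restricted livers, a log2 difference of 1.60 with no overlap. In adipose tissue the SOCS3 groups overlapped, with 12.3, 27 and 23.7 CPM in ad libitum hens and 16.6, 19.5 and 19 CPM in restricted hens. In ovary SOCS3 was at 8.39, 11.3 and 9.41 CPM with ad libitum feeding and 10.1, 3 and 4.01 CPM with restriction. The SOCS3 average was 0.89 (SE 0.21, limma p 0.00252). JAK1, a kinase bound to cytokine receptors, IL6ST, the shared receptor subunit of the interleukin 6 family, and GRB10, an adaptor that restrains insulin and growth factor receptors, had averages of 0.38, 0.44 and 0.51, each positive in all 3 tissues. Library G1724 weighed on the liver value of IL6ST, at 36.9 CPM, while the other restricted livers held 114 and 90.3 CPM. The ad libitum livers held 105, 148 and 95.6 CPM of IL6ST. Leaving out the hen of G6709, 6 of the 16 list members passed FDR 0.1 as higher.

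**Figure D5:**
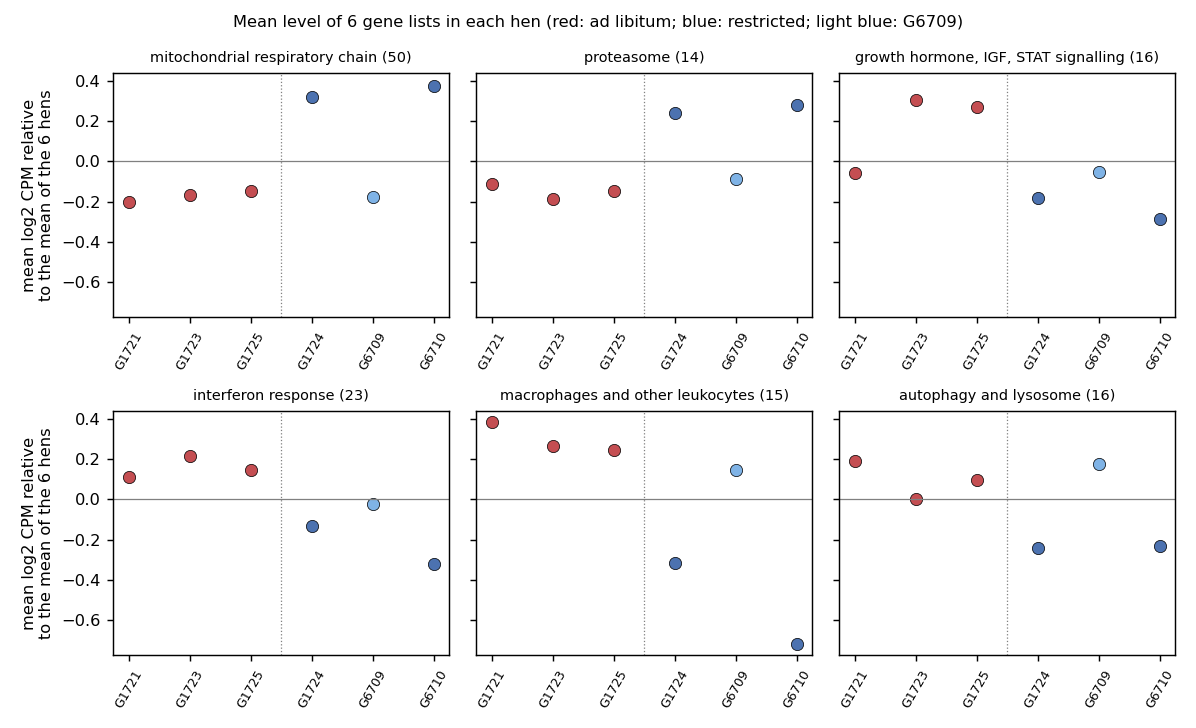
Mean log2 CPM of 6 gene lists in each hen, relative to the mean of the 6 hens (vertical axis, number of tested members in brackets), with ad libitum hens in red on the left and restricted hens in blue on the right (horizontal axis, liver library name). The hen of G6709, in light blue, is at -0.177 for the respiratory chain, beside the ad libitum hens at -0.203 to -0.145, while the other restricted hens are at 0.32 and 0.375.

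Interferon response genes also tended to be higher with ad libitum feeding. Of 23 tested, 7 reached p under 0.05 and 12 were higher in all 3 tissues, with 0 lower by either count. The median was 0.31, from 0.69 in ovary, 0.24 in liver and 0.05 in adipose tissue. NLRC5, which drives class I antigen presentation genes in mammals, and HELZ2, a nuclear helicase coactivator, had averages of 0.59 and 0.66, positive in all 3 tissues. NLRC5 (ENSGALG00000001256) had hen values of 27.8, 32.8 and 32.5 CPM in ad libitum hens, against 22.7, 25.9 and 14.8 CPM in restricted hens, without overlap. Of the 23, 7 passed FDR 0.1 as higher and 1 as lower without the hen of G6709.

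Markers of macrophages and other leukocytes also leaned higher with ad libitum feeding. Of 15 tested markers, 8 reached p under 0.05 as higher and 9 were higher in all 3 tissues, with a median log2 difference of 0.70, made of 0.30 for liver, 0.27 for adipose tissue and 1.31 for ovary. Summed over the 18 markers in the table, ovary held 1010 to 1570 CPM in ad libitum hens and 396 to 1080 CPM in restricted hens. Adipose tissue held 1190 to 2010 CPM with ad libitum feeding and 855 to 1740 CPM with restriction, and liver held 701 to 1320 CPM with ad libitum feeding and 798 to 993 CPM with restriction. The groups overlapped in every tissue, and the highest restricted value in each tissue was that of the hen of G6709. None of the markers was at 0 in all libraries of a tissue. CSF3R (ENSGALG00000002112), the receptor of granulocyte colony-stimulating factor, had hen values of 25.7, 23.7 and 14.2 CPM in ad libitum hens, against 6.56, 14.7 and 4.17 CPM in restricted hens, with an average log2 difference of 1.48 (SE 0.43, limma p 0.00767). IL7R of lymphocytes had 0.72 and was positive in each tissue, while CTSS and C1QA of macrophages had 0.68 and 0.46 and were negative in liver, at -0.02 and -0.17. The other lymphocyte markers CD3E, CD3D and BLNK had smaller averages of 0.30, 0.14 and -0.07, and none had the same direction in all 3 tissues. The part of leukocytes in the immune gene differences was not tested. Of the 15 markers, 10 passed FDR 0.1 as higher without the hen of G6709.

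Endothelial and vessel wall markers had 6 of 11 members higher at p under 0.05 and 6 higher in all 3 tissues, with 1 lower in all 3. CDH5 (ENSGALG00000005272), the cadherin of endothelial junctions, had hen values of 211, 253 and 255 CPM with ad libitum feeding, against 154, 190 and 163 CPM with restriction, and log2 differences of 0.73, 0.37 and 0.41. VWF, the clotting glycoprotein of endothelium, TEK, the angiopoietin receptor, and PDGFRB of pericytes had averages of 0.60, 0.51 and 0.62. Of the 11 averages 8 were positive and 3 negative, the latter being DES, TAGLN and RGS5 at -0.39, -0.40 and -0.09. The sums over 13 markers overlapped in every tissue, with liver at 459 to 554 CPM in ad libitum hens and 235 to 540 CPM in restricted hens, where 540 CPM was G6709. Ovary sums were 1750 to 3510 CPM with ad libitum feeding and 1420 to 10700 CPM with restriction, and adipose sums were 3980 to 8660 CPM with ad libitum feeding and 4490 to 6220 CPM with restriction. Of these 11, CDH5, VWF and PDGFRB passed FDR 0.1 as higher without the hen of G6709, and TEK did not, at 0.128 (limma).

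Nuclear receptors and their cofactors had 6 of 13 members higher at p under 0.05 and 7 higher in all 3 tissues, with 0 lower by either count. The median difference was only 0.11, against 0.03 over genes with a symbol, with 9 averages positive and 4 negative. Of the members at p under 0.05, NR5A2 and ESR1 were receptors and the others were cofactors. NR5A2 (ENSGALG00000002182), an orphan receptor of bile acid and steroid genes, had hen values of 19.1, 30.7 and 23.5 CPM in ad libitum hens, against 14.6, 15.9 and 12.9 CPM in restricted hens, and log2 differences of 0.41, 0.61 and 1.18 in liver, adipose tissue and ovary. ESR1 (ENSGALG00000012973), the estrogen receptor that drives yolk protein synthesis in liver, was at 31.8, 39.7 and 37.2 CPM in ad libitum livers, against 12.5, 16.5 and 21.7 CPM in restricted livers, without overlap. Its adipose groups overlapped at 4.56 to 5.97 CPM with ad libitum feeding and 4.37 to 5.46 CPM with restriction, and its ovary range was 14.3 to 19.6 CPM in ad libitum hens and 5.39 to 26.6 CPM in restricted hens. The cofactors NCOA3, a coactivator, and NCOR1, a corepressor, had averages of 0.72 and 0.37. Of the 13 genes, 6 passed FDR 0.1 as higher without the hen of G6709.

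Circadian clock genes had 3 of 9 members higher at p under 0.05 and 4 higher in all 3 tissues. PER2 (ENSGALG00000005521), a repressor of the clock, was at 29.4, 58.2 and 45.5 CPM in ad libitum livers, against 12.2, 22.6 and 12.4 CPM in restricted livers, with a log2 difference of 1.50 there, 0.14 in adipose tissue and 0.50 in ovary. BMAL1, the activator that PER2 opposes, was also positive in each tissue, with an average of 0.44, while NFIL3, a repressor of clock output genes, was 0.98 in liver and -0.31 in adipose tissue. CSNK1E, a kinase of PER proteins, had 0.27, with -0.07 in ovary. Genes known as glucocorticoid and stress hormone targets had 1 of 9 higher at p under 0.05 and 4 higher in all 3 tissues, at a median of 0.48. Over genes with a symbol these shares were 12.5% and 24.3%. The hour of sampling was not given in the sources used here, so time of day or of the last meal could not be compared between groups. When the hen of G6709 was omitted, 2 of the 9 genes of each of these lists passed FDR 0.1 as higher. That is close to the 19.2% of all genes with a symbol that passed as higher. Of the clock genes, CSNK1E passed at FDR 0.0788, whereas PER2, BMAL1 and NFIL3 did not pass, at 0.125, 0.19 and 0.18 (limma).

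In insulin and FOXO signalling, 3 of 16 genes were higher and 1 lower at p under 0.05, and 5 were higher and 1 lower in all 3 tissues. FOXO1, the transcription factor that insulin keeps out of the nucleus, had an average of 0.50 and was positive in each tissue, as was RICTOR of the mTORC2 kinase complex, at 0.44. PIK3R1, a regulatory subunit of PI3-kinase, had 0.47, and CCNG2, an atypical cyclin and FOXO target, had -0.35. As higher, 8 of the 16 passed FDR 0.1 without the hen of G6709, FOXO1 and RICTOR among them, while PIK3R1 and CCNG2 did not pass, at 0.16 and 0.153 (limma).

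Lipid synthesis genes were not shared in direction for the most part. Of 16 fatty acid synthesis genes, 3 were lower at p under 0.05 and 2 were lower in all 3 tissues, with 0 higher by either count. FASN (ENSGALG00000002747), fatty acid synthase, was at 1578, 1432 and 1704 CPM in ad libitum livers, against 4117, 1561 and 5521 CPM in restricted livers. In adipose tissue FASN was at 822, 407 and 351 CPM in ad libitum hens, against 1243, 508 and 1001 CPM in restricted hens. G6709 and F6709 were within the ad libitum range in both tissues, and the ovary log2 difference was 0.01. The average was -0.62 with 6 hens (limma p 0.0365) and -0.92 without the hen of G6709 (FDR 0.0276). ME1, which supplies NADPH for lipid synthesis, had -1.35 in liver and 0.06 in ovary, and ACSL1, which activates fatty acids, had -1.03 in adipose tissue and -0.05 in liver. Without that hen 6 of the 16 passed as lower.

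Cholesterol genes had 3 of 9 lower and 1 higher at p under 0.05, with 4 lower and 2 higher in all 3 tissues. NSDHL (ENSGALG00000007493), an enzyme of sterol synthesis, had nearly equal log2 differences of -0.54, -0.54 and -0.56 in liver, adipose tissue and ovary, with hen values of 33.8, 31.8 and 26.5 CPM in ad libitum hens, against 44, 34.7 and 58.1 CPM in restricted hens. ACAT2, which makes acetoacetyl-CoA, was also lower in each tissue, with an average of -0.54 (SE 0.14). The sterol exporter ABCA1 had the opposite sign, at 0.82, and was positive in each tissue. In the list of fatty acid oxidation and fasting genes, 1 of 9 reached p under 0.05. That gene, PDK4 (ENSGALG00000009700), the kinase that closes pyruvate dehydrogenase, was at 240, 753 and 564 CPM in ad libitum adipose tissue, against 65.4, 331 and 74.3 CPM in restricted adipose tissue. Its log2 differences were 1.56 for liver, 1.99 for adipose tissue and -0.24 for ovary. CPT1A, which carries fatty acids into mitochondria, and PNPLA2, a triglyceride lipase, had averages of 0.72 and 0.40. Without the hen of G6709, 2 cholesterol genes passed as higher and 5 as lower, and 5 oxidation genes passed as higher and 1 as lower.

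In glycolysis and gluconeogenesis, 2 of 12 genes were higher and 3 lower at p under 0.05, with 5 lower and 2 higher in all 3 tissues. PGK1, a glycolytic kinase, and DLAT, a subunit of pyruvate dehydrogenase, were lower in each tissue, with averages of -0.35 and -0.38, and HK2, a hexokinase of muscle and fat, had 0.41. SIK1, described above, was a member of this list. In the fit that omitted the hen of G6709, 1 of the 12 passed as higher and 6 as lower, and HK2 did not pass, at FDR 0.104 (limma).

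Stress response lists were mixed. Of 17 amino acid stress genes, targets of ATF4, 2 were higher and 1 lower at p under 0.05, and 4 were higher and 3 lower in all 3 tissues. ATF3, a stress-induced transcription factor, had 0.90, CEBPB had 0.40 with -0.38 in liver, PSAT1 of serine synthesis had -0.60 and the seryl-tRNA synthetase SARS had -0.35. Of 15 oxidative stress genes, 2 were higher and 1 lower at p under 0.05. TXNRD1 (ENSGALG00000012714), thioredoxin reductase, had hen values of 41.5, 62 and 45.1 CPM in ad libitum hens, against 32.5, 34.7 and 27.5 CPM in restricted hens, with an average log2 difference of 0.64 (SE 0.17) and positive values in each tissue. NFE2L2, the regulator of this response, and HMOX1, heme oxygenase, had 0.31 and 0.48, also positive in each tissue, while PRDX1, a peroxidase, had -0.34 and was negative in each. Of 12 cytosolic heat shock chaperones 1 was lower at p under 0.05, HSP90AB1 at -0.46, and of 10 endoplasmic reticulum folding genes 1 was higher. Of 9 immediate early genes 1 was higher.

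Autophagy and lysosome genes had 5 of 16 higher and 1 lower at p under 0.05, with 6 higher and 2 lower in all 3 tissues. LAMP2 (ENSGALG00000008572), a lysosomal membrane protein, had hen values of 63.6, 59 and 69.1 CPM in ad libitum hens, against 40, 60.2 and 30.7 CPM in restricted hens, and log2 differences of 0.72, 0.51 and 0.59. The hen of G6709, at 60.2 CPM, was inside the ad libitum range. CTSB, a lysosomal protease, had 0.62 and ATG3, an enzyme of autophagosome formation, had -0.31. Without that hen 8 of the 16 passed as higher and 1 as lower. In the other stress lists the same omission left 1 higher and 5 lower ATF4 targets, 3 higher and 2 lower oxidative stress genes, 0 higher and 4 lower heat shock chaperones, 2 higher folding genes and 0 immediate early genes past FDR 0.1 (limma). ATF3, CEBPB and HSP90AB1 did not pass in that fit, at 0.13, 0.317 and 0.117.

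Markers of the remaining cell types gave few shared differences. Red blood cell markers had 0 of 7 at p under 0.05, and their summed level in ovary was 796 to 8800 CPM in ad libitum hens and 328 to 1340 CPM in restricted hens, while in adipose tissue it was 338 to 1810 CPM in ad libitum hens and 1270 to 2500 CPM in restricted hens. Hepatocyte markers summed to 238 to 1320 CPM in ad libitum ovaries and 136 to 254 CPM in restricted ovaries, and to 88.8 to 683 CPM in ad libitum adipose tissue and 590 to 1380 CPM in restricted adipose tissue. TTR and CP, plasma proteins of that list, were 2 of 8 at p under 0.05, with averages of 0.85 and 0.84, and TTR had -0.54 in liver. Of 3 adipocyte markers tested 1 was lower at p under 0.05, the lipid droplet protein CIDEC at -0.50. Of the granulosa, theca and oocyte markers 1 could be tested, and it did not reach p under 0.05.

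Each tissue taken alone gave 0 genes past FDR 0.1 (edgeR quasi-likelihood test on the genes tested here), and the smallest FDR was 0.259 for liver, 0.942 for adipose tissue and 0.657 for ovary. The study itself reports genes past FDR 0.1 in every tissue, with edgeR's negative binomial model. Its genes were filtered within each tissue, so they included genes left out here. The reason for the unlike counts was not tested. Of the 9192 genes tested, liver had 1302 at p under 0.05 and 1964 whose feeding groups did not overlap. Adipose tissue had 328 and 674, and ovary had 374 and 806. Without any feeding effect, 3 against 3 hens would give shares near 0.05 and 0.10. The adipose tissue and ovary counts lie below these shares. A test of whether the feeding effect differed among the tissues called 0 genes (edgeR interaction with the hen as a block, smallest FDR 0.818). In it 445 of the 9192 genes had p under 0.05, which is not above the share of 0.05 expected without any such difference. SIK1, SCD, IFIT5 and PER2, whose differences were largest in a single tissue, were among these 445, at unadjusted p of 0.00050, 0.0014, 0.0024 and 0.0030. They were picked out in the same libraries, so these p-values are not separate support for a difference among tissues. CTNND2 and NSDHL had interaction p of 0.84 and 0.98, which does not show that their effects were equal.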

How the data were processed

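Paired-end reads were aligned and counted by the authors, whose deposited table holds raw counts per Ensembl chicken gene in 18 libraries (genome Gallus_gallus-5.0). The submitters' processing notes name CASAVA 1.8, TopHat2 2.1.1, Bowtie2 2.0.6 and edgeR. From these counts, TMM-scaled log2 CPM (edgeR 4.0.16, prior count 2, each tissue apart) were averaged over the 3 tissues of a hen for genes above 1 CPM in all libraries. The 3 ad libitum and 3 restricted hens were compared with limma 3.58.1 (moderated test with trend, Benjamini-Hochberg over 9192 genes, FDR 0.1) in R 4.3.3. CPM of single genes are the TMM-scaled values, and hen values are geometric means over tissues. The 1 CPM limit, the first tissue markers, the CPM floors and the sums over lists were scaled by library size alone. Tissues alone and the tissue by feeding interaction were tested with edgeR's quasi-likelihood test. DESeq2 1.42.0, limma-voom, other scalings and filters, 2 of the 3 tissues and leaving out each hen were alternatives. Figures used Python 3.11.15 and matplotlib 3.10.9. The scripts were tested on simulated data.

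Libraries of 1 hen share a number in their labels, so they were taken as paired. The mean correlation of their deviations from group means was 0.0691, and the consensus correlation in limma-voom was 0.0617. P-values of limma on hen means measure the spread between these hens, and an exact permutation test of 3 against 3 cannot go below 0.10. The edgeR and DESeq2 tests of the average over 18 libraries took no account of the hen. Depth ranged from 14793554 to 23261748 counts, and CPM floors cover counting error only.

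Named genes were, for want of genes past FDR 0.1, the 12 higher and 12 lower genes of smallest p with a symbol and hen means that do not overlap, the genes apart in every tissue, and up to 4 members of smallest p in a list. Some list members named by that rule are given only within their list's counts. Symbols came from pairs of ID and symbol in the study's supplementary tables, after names turned into dates, open reading frame numbers and names with a point were left out, and covered 4122 of the 9192 genes. These tables keep genes of low p, so lists were read beside genes with a symbol. The members, lists and tests were chosen with earlier results of these data known. The count without the hen of G6709 in each list was added after seeing the data. Whether counting used strand was not given in the sources used here, so overlapping antisense genes cannot be told apart. A few genes that the rule names are not reported here.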

Additional observations from a re-analysis of the deposited data

How the results depend on the processing

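With all 6 hens, 0 genes passed FDR 0.1 under RLE or library size scaling, a prior count of 0.5, other filters, FDR 0.05 and 2 of the 3 tissues, and with limma-voom and the hen as a replicate block (0 genes, smallest FDR 0.370). DESeq2 over 18 libraries gave 117 higher and 101 lower genes. Leaving out 1 hen gave 0 to 1085 higher and 0 to 678 lower genes, the upper values without the restricted hen of G6709. Genes with the same direction in all 3 tissues numbered 2549 to 4255 over these omissions (3650 with all hens) and 6398 with no filter, which tests all 17108 genes. The interaction gave 0 to 3 genes, with 3 without the hen of G6709 and 1 without the hen of G6710. DESeq2 within a tissue gave 204 genes for liver, 18 for adipose tissue and 25 for ovary, and the omissions gave 0 to 71 for liver and 0 to 12 for adipose tissue, the upper values without G6709 and F6709, and 0 for ovary. Causes were not tested. Of 93 genes examined singly, all 1674 values under the alternatives kept their direction, 83 genes passed FDR 0.1 without the hen of G6709 and 44 with DESeq2. These genes were chosen by small p or separate groups in the same libraries. Kept directions and passes thus largely follow from the choice and are not separate support. Scaling by library size alone moved the liver median of all genes to -0.11 on the log2 scale, against 0.01 with TMM.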
